A study of Drosophila melanogaster with 20 samples.

Results

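Heads of flies lacking both FNE and RBP9 were compared with wild-type heads, gene by gene. A gene entered the comparison when the average of its normalized counts across all 10 libraries exceeded 10, which left 10490 of the 17558 genes in the count table. A gene was called when its log2 fold change exceeded 0.5 in either direction with an adjusted p below 0.01 (edgeR quasi-likelihood test, Benjamini-Hochberg adjustment over all 10490 genes). Wild type was the w1118 stock. ΔfneΔrbp9 females were Df(1)fneΔ/fneKOZ2; rbp9P2690/Df(2L)ED206, and ΔfneΔrbp9 males carried Df(1)fneΔ or fneKOZ2 with rbp9P2690/Df(2L)ED206, so that RBP9 was removed by a mutant allele over a deficiency that also takes away neighbouring genes from 1 chromosome. The study's methods describe males and females pooled in equal numbers, taken 1 day after eclosion. The stock carries a white mutation of its own and was not derived from the mutant crosses as far as the sources state, so genetic background and loss of the proteins cannot be told apart in this comparison. Levels in Δfne (Df(1)fneΔ/fneKOZ2 females, Df(1)fneΔ or fneKOZ2 males) and Δrbp9 (rbp9P2690/Df(2L)ED206), each with 5 libraries, are given beside those of ΔfneΔrbp9 (as mean ± SD, n = 5) without a test, because every comparison shares the same wild-type libraries.

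FNE and RBP9 belong to the ELAV family of RNA-binding proteins, a conserved group found in neurons from flies to mammals. The founding member, ELAV, acts in the nucleus on splicing and on the choice of the 3′ end of transcripts, whereas FNE and RBP9 are mostly cytoplasmic, where ELAV-like proteins bind U-rich stretches of mRNAs and influence their stability, localization and translation. The fly head holds the brain and the compound eyes, together with fat body, muscle, cuticle, antennae and blood cells, and all of these contribute RNA to a head library.

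The targeted genes followed the labels. Rbp9 (2L) read 501, 492, 505, 476 and 434 CPM (counts in 1000000, scaled to library size) in the 5 wild-type libraries and 18.5, 19.2, 16.8, 20.03 and 17.1 CPM in ΔfneΔrbp9, that is, 3.81% of the wild-type mean remained. fne (X) read 209.7, 190.0, 206, 186 and 179 CPM in the wild-type libraries and 83.9, 96.1, 88.4, 87.1 and 84.7 CPM in ΔfneΔrbp9. The groups did not overlap for either gene. The fne RNA counted in ΔfneΔrbp9 amounted to 45.4% of wild type, so its alleles left transcript that aligned to the gene.

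Total counts ranged from 15923472 to 21064462 in wild type and from 10289950 to 18757832 in ΔfneΔrbp9. Replicates of a group differed from each other by more than counting noise. The study's methods call the 5 replicates of a genotype independent, without saying whether they came from separate crosses, and p-values measure the spread among these libraries. The first principal component held 58.1% of the variance and separated the genotypes, and the second, with 21.2%, spread mainly the wild-type libraries, replicates 2 and 3 lying at one end and replicate 5 at the other. Summed photoreceptor markers spanned 16504 to 17558 CPM in wild type and 16751 to 17908 CPM in ΔfneΔrbp9, and neuronal markers 3494 to 3988 and 3748 to 3869 CPM. Glial markers were lower in ΔfneΔrbp9 without overlap, at 3535 to 3743 against 3807 to 4397 CPM. Of a wider list of 25 glial genes 1 was called lower, Eaat2, while 20 had log2 fold changes below 0 and 5 above, with a median of -0.09. Fat body markers varied more among wild-type heads (5146 to 27302 CPM) than among ΔfneΔrbp9 heads (8436 to 13463 CPM). The yolk protein genes Yp1, Yp2 and Yp3, which are part of that sum, varied likewise, at 2064 to 18653 against 4716 to 7963 CPM. The male-specific roX1 and roX2 RNAs summed to 1082 to 1274 CPM in wild type and 1045 to 1122 CPM in ΔfneΔrbp9. Markers of ovary and of testis and accessory gland stayed at or under 3.23 CPM in sum in every library.

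Of the 10490 genes, 907 were called, which is a share of 8.65%. Of these, 424 were higher (4.04%) and 483 were lower (4.6%) in ΔfneΔrbp9. Most differences were modest: 517 of the called genes lay between 0.5 and 1 on the log2 scale, 390 exceeded 1 and 109 exceeded 2. Libraries of the groups did not overlap for 2435 of the 10490 genes (23.2%) and for 862 of the 907 called. A lack of overlap was thus common among called genes, and it was required of genes named by size of fold change. The median over all genes tested was -0.01, a value that the scaling of the libraries sets close to 0. Noncoding RNA genes were called more often (16.0% of 430, with 20 higher and 49 lower) than protein-coding genes (8.22% of 9671). The few pseudogenes had a larger share still (31.1% of 45, with 10 higher and 4 lower). By chromosome the share ran from 6.81% on arm 2R to 9.66% on arm 3L, with 2.17% of the 92 genes on chromosome 4. Of the 907 genes, 206 belonged to at least 1 of 55 gene lists, which include the neuropeptides and some lists not described here. In RNA from whole heads, fewer cells of a type and less RNA in each cell cannot be told apart, which holds for all results that follow.

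**Figure D1:**
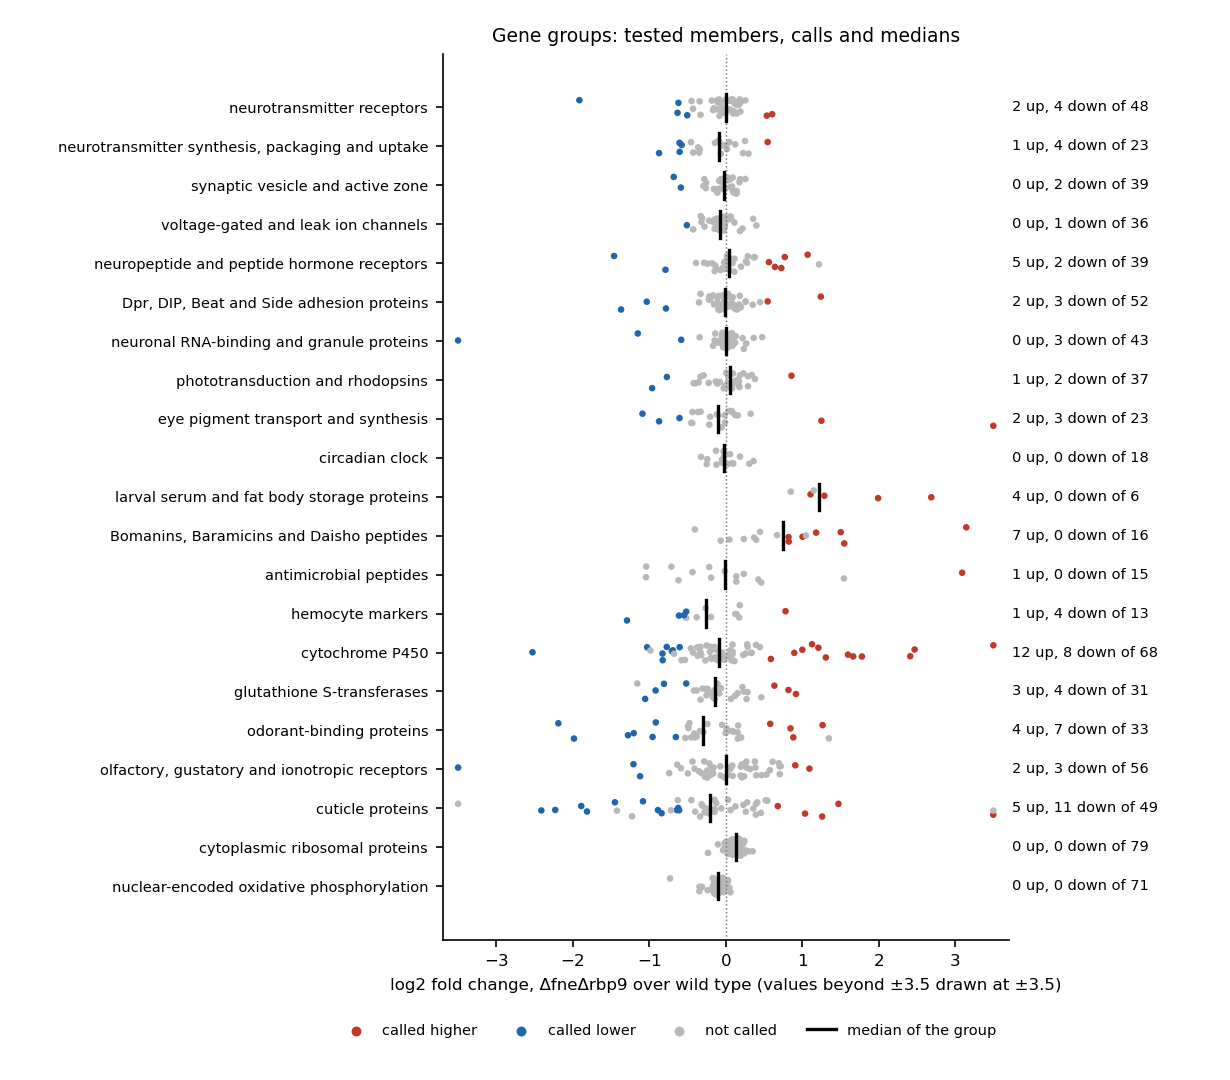
Each point is a tested gene of the group named at the left, placed by its log2 fold change of ΔfneΔrbp9 over wild type. Red points were called higher, blue points lower and grey points were not called, black bars are group medians, values beyond the axis are drawn at its ends, and the counts at the right give calls per group. Among the groups plotted, most bars sit near 0, while those of the larval serum and fat body storage proteins (1.22) and of the Bomanins, Baramicins and Daisho peptides (0.75) lie to the right.

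Of 48 neurotransmitter receptor genes tested, 4 fell and 2 rose (12.5% called beside 8.65% of all genes), with a group median of 0.00. Dop2R (chromosome X, 20004680 to 20062706), a D2-like dopamine receptor, read 218, 257, 269, 259.6 and 252 CPM in wild type against 66.5, 62.9, 71.1, 66.7 and 68.6 CPM in ΔfneΔrbp9. Every ΔfneΔrbp9 library lay under the lowest wild-type library, and the level fell to 26.7% of wild type (log2 fold change -1.91 ± 0.06 (SE), edgeR adjusted p = 1.8e-09). In heads lacking only FNE or only RBP9, the same receptor stood at 302 ± 21.2 and 208 ± 2.65 CPM (mean ± SD, n = 5 each). The other lower receptors were mGluR, a metabotropic glutamate receptor, at 81.1 ± 6.06 against 125 ± 6.89 CPM (log2 fold change -0.63 ± 0.06 (SE), edgeR adjusted p = 1.2e-05), the nicotinic acetylcholine receptor subunit nAChRbeta3 (log2 fold change -0.62) and DopEcR, a receptor for dopamine and ecdysteroids (-0.50). The higher ones were Octbeta1R, an octopamine receptor (log2 fold change 0.54), and ort, the histamine-gated chloride channel through which photoreceptors signal to their targets (0.61). DopEcR and Octbeta1R were chosen for naming after their values had been seen. DopEcR sat at the cutoff, and the group had 5 calls with DESeq2 and 5 to 6 in the fits without 1 library.

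Genes that make, pack or clear transmitters showed 4 lower and 1 higher member among 23 tested (21.7% called beside 8.65% of all genes). Ace, the acetylcholinesterase that ends cholinergic transmission, read 434, 433, 461, 437 and 445 CPM in wild-type heads and 273, 286, 311, 299 and 295 CPM in those of ΔfneΔrbp9. The groups did not overlap (log2 fold change -0.60 ± 0.04 (SE), edgeR adjusted p = 1.2e-06), and Δfne and Δrbp9 heads had 393 ± 20.2 and 349.6 ± 8.75 CPM. ChAT, which synthesizes acetylcholine, moved the other way, at 126, 126, 119, 147 and 162 CPM in the wild-type libraries and 206, 181, 204, 204 and 207 CPM in ΔfneΔrbp9 (log2 fold change 0.55 ± 0.08 (SE), edgeR adjusted p = 4.5e-04). Eaat2, a transporter of aspartate and taurine, fell to 66.3% of wild type (log2 fold change -0.60 ± 0.03 (SE), edgeR adjusted p = 3.2e-07), and its level in Δrbp9 was 286 ± 2.47 CPM beside 274 ± 9.93 CPM in ΔfneΔrbp9 and 387 ± 7.51 CPM in Δfne. Trhn, the neuronal tryptophan hydroxylase of serotonin synthesis, fell by 0.58 on the log2 scale, and Pu, whose product GTP cyclohydrolase starts the synthesis of the hydroxylases' pterin cofactor, fell by 0.87.

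Of 39 synaptic vesicle and active zone genes, 2 fell (5.13% called beside 8.65% of all genes) and the median was -0.02. Snap25, a SNARE protein of the presynaptic membrane, had 556, 555, 494, 523 and 536 CPM in wild type against 332, 362, 322, 348 and 311 CPM in ΔfneΔrbp9. comt, the NSF ATPase that takes SNARE complexes apart after fusion, had 404, 403, 375, 383 and 435 CPM in wild-type heads and 278, 268, 269, 260.2 and 266 CPM in those of ΔfneΔrbp9. For both genes the highest ΔfneΔrbp9 library was under the lowest wild-type library (log2 fold change -0.68 ± 0.05 (SE), edgeR adjusted p = 2.8e-06 for Snap25, and log2 fold change -0.59 ± 0.04 (SE), edgeR adjusted p = 2.6e-06 for comt). In Δfne and Δrbp9, Snap25 stood at 504 ± 26.9 and 454 ± 15.5 CPM and comt at 385 ± 8.48 and 380.0 ± 9.79 CPM. Among 36 voltage-gated and leak ion channel genes the only call was tipE, an accessory subunit of the voltage-gated sodium channel, whose log2 fold change of -0.51 sat at the cutoff. That call was lost with DESeq2, among other settings, and without wild type replicate 4 or ΔfneΔrbp9 replicate 1, 4 or 5, the range over all fits without 1 library being -0.53 to -0.48. Circadian clock genes, 18 in number, gave 0 calls with edgeR, DESeq2 or limma-voom, with 7 at an unadjusted edgeR p below 0.05.

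Of 52 genes of the Dpr, DIP, Beat and Side families, immunoglobulin-domain proteins that bind each other across synapses or guide axons, 3 fell and 2 rose, a share of 9.62% that is near the 8.65% of all genes. DIP-epsilon (chromosome arm 2L, 6377771 to 6411326) read 169, 162, 169.9, 176 and 152 CPM in the wild-type libraries and 59.1, 68.8, 69.6, 66.4 and 59.8 CPM in ΔfneΔrbp9 (log2 fold change -1.37 ± 0.06 (SE), edgeR adjusted p = 3.7e-08). Every ΔfneΔrbp9 library lay under every wild-type library, and Δfne and Δrbp9 were low as well, at 75.9 ± 6.35 and 61.02 ± 3.16 CPM. DIP-theta fell to 49.3% and DIP-lambda to 58.7% of wild type. dpr21 rose 2.37-fold, from 15.2, 14.2, 14.96, 12.7 and 15.5 CPM in wild type to 33.5, 37.2, 35.2, 32.9 and 34.2 CPM in ΔfneΔrbp9, again without overlap (log2 fold change 1.24 ± 0.06 (SE), edgeR adjusted p = 8.1e-08). Its levels in Δfne and Δrbp9 were 49.7 ± 3.25 and 34.8 ± 2.39 CPM. beat-Vc rose by less, with a log2 fold change of 0.55.

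Receptors for neuropeptides and peptide hormones gave 5 higher and 2 lower genes of 39 tested (17.9% called beside 8.65% of all genes). AstC-R1, a receptor for allatostatin C, read 30.2, 29.2, 29.7, 31.2 and 32.5 CPM in wild type against 11.3, 11.7, 11.6, 9.96 and 11.2 CPM in ΔfneΔrbp9, a fall to 36.5% (log2 fold change -1.46 ± 0.06 (SE), edgeR adjusted p = 1.2e-08). Δfne and Δrbp9 heads were below the wild-type range as well, at 10.03 ± 1.29 and 8.16 ± 0.755 CPM. SIFaR, the SIFamide receptor, went from 10.2, 10.6, 10.96, 11.5 and 13.3 CPM in wild type to 24.3, 21.9, 25.5, 23.4 and 24.6 CPM in ΔfneΔrbp9 (log2 fold change 1.07 ± 0.07 (SE), edgeR adjusted p = 1.4e-06). It measured 15.4 ± 2.09 CPM in Δfne and 12.2 ± 0.735 CPM in Δrbp9. hec, a receptor of the secretin family, fell from 4.88 ± 0.663 to 2.84 ± 0.539 CPM. AstA-R2, a receptor for allatostatin A, rose by 0.77 on the log2 scale from a low level of 2.601 ± 0.293 CPM.

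**Figure D2:**
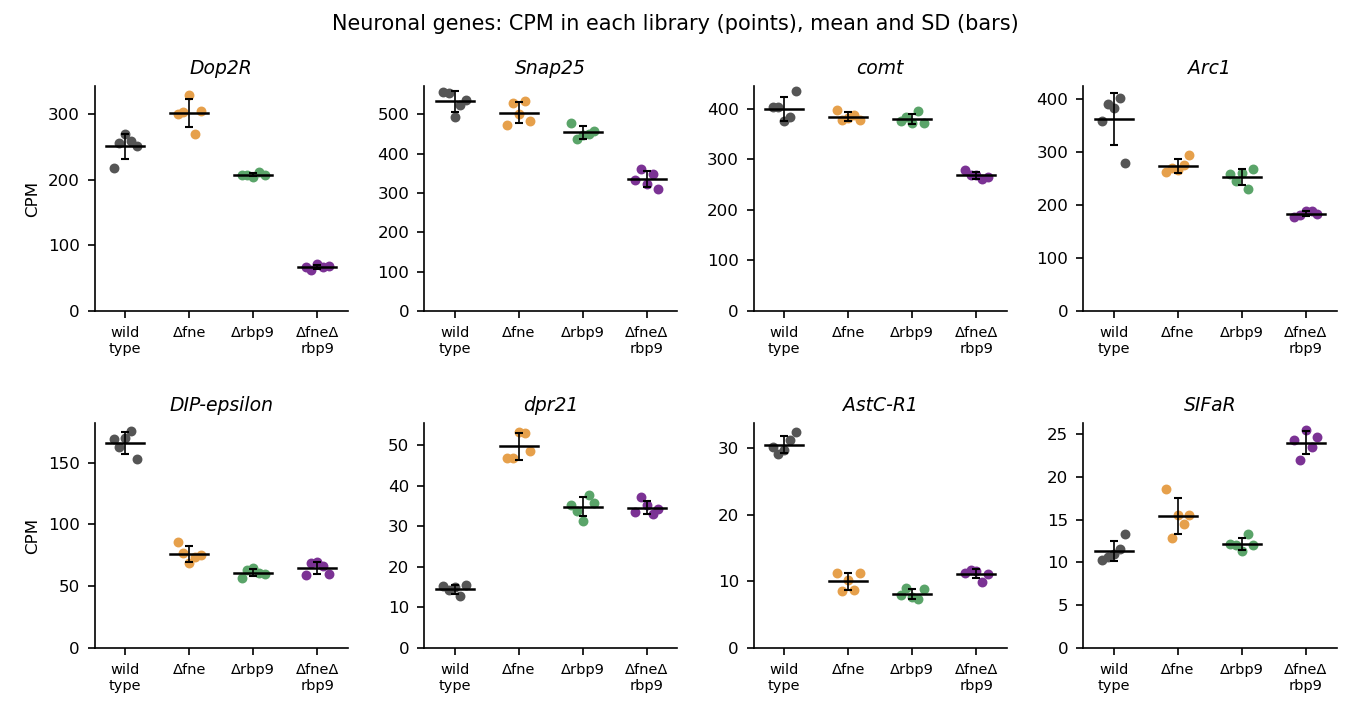
CPM of 8 neuronal genes, with 1 point per library, a bar at the mean of the 5 libraries of each genotype and the SD as error bar. ΔfneΔrbp9 and wild type do not overlap in any panel; Dop2R, Snap25, comt and SIFaR have Δfne and Δrbp9 means nearer to wild type, while DIP-epsilon, dpr21 and AstC-R1 have them nearer to ΔfneΔrbp9.

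Beyond fne and Rbp9 themselves, 1 gene of 43 neuronal RNA-binding and granule proteins was called (6.98% with fne and Rbp9 counted, beside 8.65% of all genes). This was orb2, the CPEB-family translational regulator required for long-term memory, at 209, 203, 203, 208 and 201 CPM in wild-type heads and 130.3, 141, 139, 144 and 134 CPM in those of ΔfneΔrbp9 (log2 fold change -0.58 ± 0.04 (SE), edgeR adjusted p = 5.8e-07). The groups did not overlap, although the decrease was small. Among 12 activity-regulated genes, Arc1, a Gag-like protein that forms RNA-carrying capsids, read 359, 391, 382, 402 and 279 CPM in the wild-type libraries and 178, 182, 189, 189 and 183 CPM in ΔfneΔrbp9 (log2 fold change -0.99 ± 0.09 (SE), edgeR adjusted p = 6.8e-06). Its means in Δfne and Δrbp9, 274 ± 12.9 and 253 ± 14.6 CPM, lay between these values. The transcription factors Hr38 and sr of the same group rose, with log2 fold changes of 0.65 and 0.57, and hence opposite to Arc1. ari-2 (chromosome arm 2R, 22212835 to 22217264), an RBR-type ubiquitin ligase, read 52.5, 51.04, 56.2, 55.3 and 56.8 CPM in wild type against 148, 149.8, 152, 147 and 146 CPM in ΔfneΔrbp9 (log2 fold change 1.44 ± 0.04 (SE), edgeR adjusted p = 7.2e-10). Δfne and Δrbp9 measured 51.3 ± 1.096 and 53.7 ± 3.09 CPM.

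The roX RNAs were used as a covariate for the proportion of males in a head pool. The study's methods describe equal numbers of males and females, and whether any pool departed from that was not tested. Their summed log2 CPM ran from 10.01 to 10.13 in ΔfneΔrbp9 and from 10.07 to 10.31 in wild type, so the covariate partly followed genotype. For a call lost in that fit, sex ratio and genotype therefore cannot be told apart. Whether genotype alters the roX level was not tested. In that fit 1125 genes were called, of which 584 were among the 907, and several neuronal genes were no longer called. These were ort (log2 fold change 0.33), ChAT (0.28), Hr38 (0.42), sr (0.39) and beat-Vc (0.45), which kept their direction, together with AstA-R2 (log2 fold change 0.75, edgeR adjusted p = 0.011) and hec (-0.70, edgeR adjusted p = 0.034). Dop2R, Snap25, comt, Ace, mGluR, DIP-epsilon, dpr21, AstC-R1, SIFaR, orb2, Arc1 and ari-2 were called in that fit too.

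Of 37 phototransduction and rhodopsin genes, 2 fell and 1 rose, with a median of 0.06. That share of 8.11% is near the 8.65% of all genes. ninaB, the oxygenase that cleaves carotenoids to make the retinal chromophore, read 235, 223, 233, 221 and 219 CPM in wild-type heads and 112, 119, 127, 118 and 109 CPM in those of ΔfneΔrbp9 (log2 fold change -0.96 ± 0.05 (SE), edgeR adjusted p = 6.9e-08). ninaD, the scavenger receptor that takes up carotenoids upstream of ninaB, rose instead, from 56.1, 43.2, 37.5, 51.98 and 55.3 CPM to 81.8, 104.1, 83.99, 91.8 and 84.7 CPM (log2 fold change 0.86 ± 0.11 (SE), edgeR adjusted p = 1.7e-04). Neither gene had overlapping groups. laza, a lipid phosphate phosphatase of the photoreceptor signalling cascade, fell to 59.1% of wild type (log2 fold change -0.77 ± 0.05 (SE), edgeR adjusted p = 1.5e-06). In Δfne and Δrbp9, ninaB measured 149.5 ± 3.46 and 157 ± 8.56 CPM.

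Among 23 genes of eye pigment transport and synthesis, 3 fell and 2 rose (21.7% called beside 8.65% of all genes). The 3 that fell act in the red pteridine branch. pr, encoding 6-pyruvoyl-tetrahydropterin synthase, had 501, 380.1, 354, 444 and 588 CPM in the wild-type libraries and 204, 222, 225, 211 and 212 CPM in ΔfneΔrbp9 (log2 fold change -1.09 ± 0.12 (SE), edgeR adjusted p = 4.9e-05). Pu had 1575, 1393, 1229, 1489 and 1846 CPM in wild type against 810.1, 758, 921, 807 and 851 CPM in ΔfneΔrbp9 (log2 fold change -0.87 ± 0.10 (SE), edgeR adjusted p = 5.3e-05). Wild-type libraries spread widely for both genes and yet none reached down to ΔfneΔrbp9. bw, the partner of white in pteridine transport, fell to 66.3% of wild type. w itself, which is mutant in the w1118 stock, read 0.209 ± 0.179 CPM there and 334 ± 51.5 CPM in ΔfneΔrbp9, a difference in which stock and genotype cannot be told apart. The second riser, cn, stood at 0.507 ± 0.0811 and 1.25 ± 0.541 CPM, and its call was lost in 8 of the 10 fits without 1 library, all except those without ΔfneΔrbp9 replicate 3 or 5, with an edgeR adjusted p of up to 0.026. In Δrbp9 pr and Pu stood at 213 ± 13.1 and 817 ± 148 CPM, and in Δfne at 289 ± 47.3 and 1209 ± 141 CPM.

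Genes of the fat body for protein storage rose. Of 6 larval serum and fat body storage genes, 4 rose (66.7% called beside 8.65% of all genes), and the group median was 1.22. Fbp1 (chromosome arm 3L, 14094589 to 14098053), the receptor through which the fat body takes up storage hexamers, read 97.6, 162, 108, 156 and 168 CPM in wild-type heads and 502, 604, 528, 601 and 537 CPM in those of ΔfneΔrbp9, a 3.98-fold rise (log2 fold change 1.99 ± 0.15 (SE), edgeR adjusted p = 2.5e-06). Fbp2, an alcohol dehydrogenase-like fat body protein, went from 9.88, 19.6, 12.7, 17.3 and 20.6 CPM to 83.8, 115, 96.3, 112 and 114 CPM (log2 fold change 2.69 ± 0.19 (SE), edgeR adjusted p = 1.3e-06). The storage hexamer subunits Lsp1beta and Lsp1gamma rose 2.16-fold and 2.45-fold. None of these overlapped between the groups, which for Fbp2 was required by the rule that named it. In Δfne, Fbp1 and Fbp2 measured 67.9 ± 14.9 and 6.57 ± 1.72 CPM, below the wild-type means, and in Δrbp9 215 ± 50.4 and 51.6 ± 13.7 CPM, above them. The fat body marker sum overlapped between wild type and ΔfneΔrbp9. It contains Fbp1 itself and the yolk protein genes, so it is no separate measure of fat body amount, and its part in these values was not tested.

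Several enzymes of purine synthesis rose as well. Paics (X) and Gart (2L), which encode multifunctional enzymes of de novo purine synthesis, were examined with 14 further purine and one-carbon genes in a group drawn up after values had been seen. Of these 16 genes, 6 rose and 2 fell, with a median of 0.40. Paics read 416, 558, 566, 393 and 402 CPM in the wild-type libraries and 761, 958, 842, 903 and 898 CPM in ΔfneΔrbp9 (log2 fold change 0.89 ± 0.12 (SE), edgeR adjusted p = 1.6e-04). Gart read 206, 292, 276, 222 and 242 CPM in wild type against 452, 463, 569, 472 and 452 CPM in ΔfneΔrbp9 (log2 fold change 0.95 ± 0.10 (SE), edgeR adjusted p = 3.7e-05). For both, every ΔfneΔrbp9 library exceeded every wild-type library, while Δfne and Δrbp9 means were 589.6 ± 45.5 and 522 ± 40.01 CPM for Paics and 208 ± 32.3 and 244 ± 9.49 CPM for Gart. Shmt, the serine hydroxymethyltransferase that feeds one-carbon units into the pathway, rose by 0.66 on the log2 scale and was chosen for naming after its value had been seen. Gnmt, glycine N-methyltransferase, fell from 19.03, 25.8, 21.5, 7.61 and 8.75 CPM to 2.66, 2.62, 4.91, 2.05 and 3.02 CPM (log2 fold change -2.44 ± 0.37 (SE), edgeR adjusted p = 5.1e-04), but the value dropped to -1.41 and missed the p cutoff with the roX covariate (edgeR adjusted p = 0.019). The other lower gene, Ts, lies beside Rbp9 in the stretch of arm 2L described last.

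In a list of 9 pteridine and inositol genes drawn up after values had been seen, 4 fell (Pu, pr, Miox and Inos), 0 rose and the median was -0.08. Miox, myo-inositol oxygenase, which opens the inositol ring, read 207, 347, 252, 194 and 199 CPM in wild-type heads and 84.4, 87.4, 118, 71.6 and 79.6 CPM in those of ΔfneΔrbp9 (log2 fold change -1.45 ± 0.18 (SE), edgeR adjusted p = 1.0e-04). Inos, the synthase that makes inositol phosphate from glucose 6-phosphate, read 441, 495, 462, 431 and 369 CPM in the wild-type libraries and 263, 247, 269, 241 and 245 CPM in ΔfneΔrbp9 (log2 fold change -0.81 ± 0.07 (SE), edgeR adjusted p = 6.9e-06). The groups did not overlap for these enzymes of opposite metabolic direction. Miox was low in Δfne and Δrbp9 too, at 88.9 ± 20.8 and 78.7 ± 12.4 CPM, and Inos stood at 352 ± 22.99 and 275 ± 2.41 CPM.  Elsewhere in metabolism, 3 of 39 carbohydrate genes rose (sordd2, Adh and Pepck2), a share of 7.69% beside 8.65% of all genes. Of 36 lipid genes 3 rose and 2 fell (13.9% called). The largest lipid change outside the Rbp9 neighbourhood was in Dgat2, a diacylglycerol acyltransferase, which fell to 46.5% (log2 fold change -1.11 ± 0.19 (SE), edgeR adjusted p = 0.0012). The lipid count was 3 without wild type replicate 5.

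**Figure D3:**
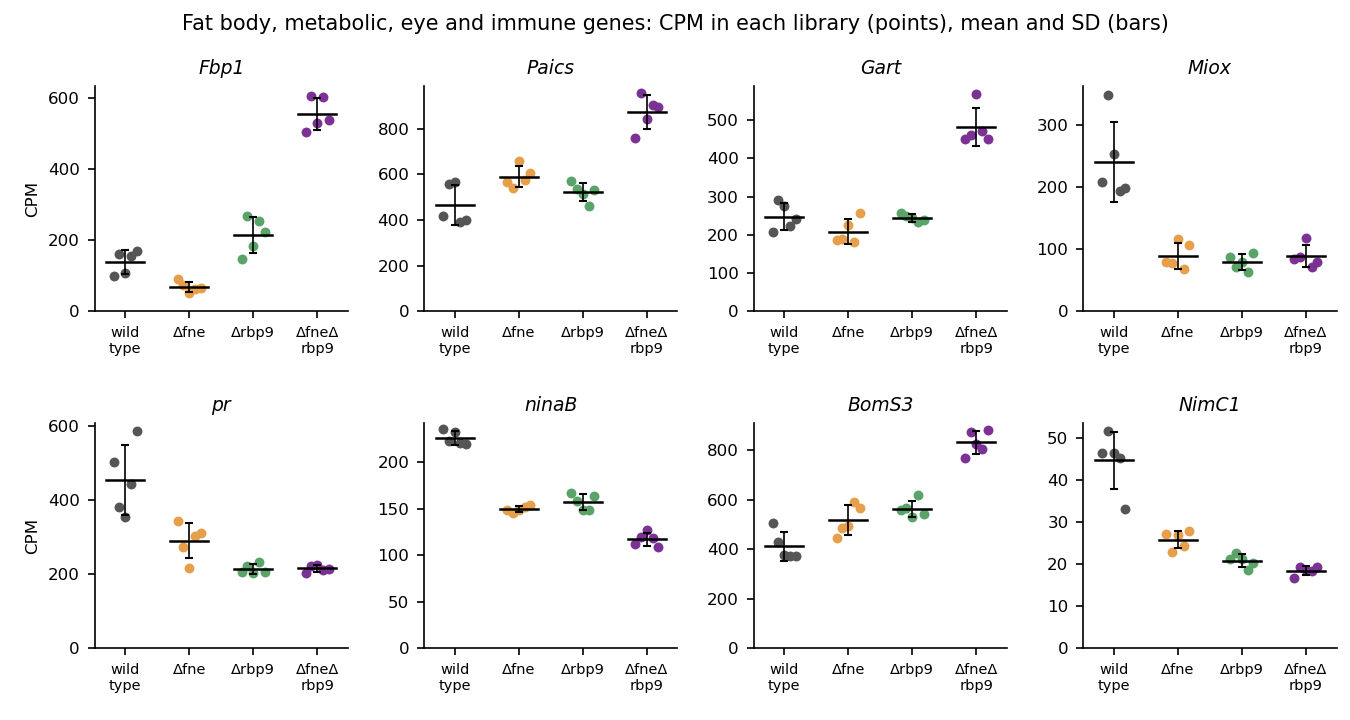
CPM of 8 genes of fat body, purine, inositol, pigment, carotenoid and immune functions, with 1 point per library, a bar at the mean of the 5 libraries of each genotype and the SD as error bar. Fbp1, Paics, Gart and BomS3 are highest in ΔfneΔrbp9, whereas Miox, pr and NimC1 are below the wild-type libraries in all 3 mutant genotypes.

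Bomanins and Daisho peptides are small secreted peptides made by the fat body when the Toll pathway is active. Of 16 such genes, 7 rose (BomBc1, BomS1, BomS2, BomS3, BomS4, BomS5 and Dso2, the last and BomS4 named after their values had been seen). That is 43.8% called, beside 8.65% of all genes. BomS3 read 507, 428, 377, 372 and 374 CPM in wild type against 770.5, 876, 827, 804 and 883 CPM in ΔfneΔrbp9 (log2 fold change 1.01 ± 0.09 (SE), edgeR adjusted p = 6.7e-06), and BomS2 read 317, 293, 274, 217 and 234 CPM in wild-type heads and 538, 674, 613, 570.2 and 659 CPM in those of ΔfneΔrbp9 (log2 fold change 1.18 ± 0.10 (SE), edgeR adjusted p = 8.1e-06). The wild-type libraries all stayed under the ΔfneΔrbp9 range. BomBc1 was 3.98 ± 1.201 CPM in the wild-type libraries and 35.8 ± 3.46 CPM in ΔfneΔrbp9, with 34.96 ± 7.24 and 38.2 ± 5.41 CPM in Δfne and Δrbp9. BomS1 and BomS5 went from 82.04 ± 28.6 and 27.7 ± 10.97 to 242 ± 32.4 and 79.3 ± 11.6 CPM, and their log2 fold changes were larger with the roX covariate (2.39 and 2.49). The BomS genes are short and alike, and reads shared between them may have been assigned unevenly.

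Among 15 genes of the classical antimicrobial peptides the only call was Drsl4, a drosomycin-like peptide, at 6.84, 6.54, 5.13, 4.95 and 6.36 CPM in wild type against 48.5, 53.8, 49.2, 52.95 and 53.4 CPM in ΔfneΔrbp9 (log2 fold change 3.09 ± 0.09 (SE), edgeR adjusted p = 1.0e-09), and its Δfne and Δrbp9 means were also high, 46.5 ± 5.14 and 67.4 ± 6.37 CPM. This 1 call is 6.67% of the 15 genes, near the share of all genes. The median of these 15 genes was -0.01, beside 0.75 for the Bomanin group. Tep4, a thioester-containing protein of the humoral response, was 34.1 ± 3.63 CPM in wild-type heads and 188 ± 8.37 CPM in those of ΔfneΔrbp9. GNBP1, which recognizes Gram-positive bacteria upstream of Toll, rose to 27.1 ± 1.88 from 16.1 ± 1.45 CPM (log2 fold change 0.74 ± 0.07 (SE), edgeR adjusted p = 2.2e-05). Spn47C was the only serpin of 17 called (5.88% beside 8.65% of all genes), while 7 of the 17 had an unadjusted edgeR p below 0.05. It fell to 43.8% of wild type (log2 fold change -1.20 ± 0.06 (SE), edgeR adjusted p = 1.1e-07), with 29.3 ± 2.31 and 35.3 ± 3.23 CPM in Δfne and Δrbp9. TotX, of the Turandot stress family, fell from 7.396 ± 2.68 to 1.88 ± 0.714 CPM, a call that was lost with the roX covariate (log2 fold change -1.24, edgeR adjusted p = 0.018).

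Of 13 hemocyte genes, 4 were called lower and 1 higher (38.5% called beside 8.65% of all genes). Of the 13, 8 had log2 fold changes below 0 and 5 above. NimC1, the phagocytosis receptor of plasmatocytes, read 46.5, 51.7, 46.5, 45.3 and 33.2 CPM in the wild-type libraries and 16.6, 19.2, 18.5, 18.3 and 19.3 CPM in ΔfneΔrbp9 (log2 fold change -1.29 ± 0.10 (SE), edgeR adjusted p = 3.9e-06). It was lower in Δfne and Δrbp9 as well, at 25.8 ± 2.09 and 20.8 ± 1.46 CPM. PPO2, the prophenoloxidase stored in crystal cells, rose instead, to 12.9 ± 1.62 from 7.39 ± 1.37 CPM (log2 fold change 0.78 ± 0.13 (SE), edgeR adjusted p = 8.4e-04). The other lower genes, Ppn, Sr-CI and Col4a1, had log2 fold changes between -0.61 and -0.52. None of these 3 was called with the roX covariate, Sr-CI and Col4a1 were not called in 8 and 6 of the 10 fits without 1 library, and the count of called genes was 3 without wild type replicate 2 or 3 or without ΔfneΔrbp9 replicate 4 or 5. The marker sum for hemocytes, which contains NimC1 and PPO2, was 398 to 582 CPM in wild type and 397 to 453 CPM in ΔfneΔrbp9, and its part in these values was not tested.

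Of 49 cuticle protein genes, 11 fell and 5 rose (32.7% called beside 8.65% of all genes), with a median of -0.21. TwdlG, of the Tweedle family, read 17.2, 16.2, 16.4, 16.5 and 14.1 CPM in wild type against 3.36, 2.89, 2.78, 3.32 and 2.89 CPM in ΔfneΔrbp9 (log2 fold change -2.41 ± 0.08 (SE), edgeR adjusted p = 3.3e-09). Lcp65Ac read 18.2, 18.1, 18.7, 20.4 and 21.98 CPM in wild-type heads and 4.86, 5.83, 5.17, 4.98 and 5.52 CPM in those of ΔfneΔrbp9 (log2 fold change -1.89 ± 0.08 (SE), edgeR adjusted p = 2.5e-08). ΔfneΔrbp9 libraries were low throughout for both, while Δfne and Δrbp9 means were 6.89 ± 0.723 and 5.49 ± 0.783 CPM for TwdlG and 13.4 ± 2.16 and 16.7 ± 2.77 CPM for Lcp65Ac. Ccp84Aa fell to 21.4% of wild type. Ccp84Ag, a member of the same gene cluster, rose from 0.36 ± 0.157 to 4.72 ± 1.14 CPM, and its log2 fold change of 3.66 became 2.98 with the roX covariate.

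Odorant-binding proteins are small soluble proteins secreted around sensory neurons and in other tissues. Of 33 odorant-binding protein genes, 7 fell and 4 rose (33.3% called beside 8.65% of all genes), and the median was -0.29. Obp99d read 27.6, 25.8, 19.4, 27.6 and 40.995 CPM in the wild-type libraries and 7.01, 7.06, 5.69, 4.49 and 6.57 CPM in ΔfneΔrbp9 (log2 fold change -2.19 ± 0.19 (SE), edgeR adjusted p = 7.9e-06), while its neighbour in the family Obp99b went from 43.7, 50.8, 47.2, 49.4 and 47.1 CPM to 101, 132, 106, 129 and 110.1 CPM (log2 fold change 1.27 ± 0.08 (SE), edgeR adjusted p = 6.3e-07). These related genes moved in opposite directions, each without overlap, which for Obp99d was required by the rule that named it. Obp99b was 27.2 ± 3.88 CPM in Δfne, under the wild-type libraries, and 88.4 ± 15.9 CPM in Δrbp9. Obp19c fell to 41.5% and Obp56a to 25.3% of wild type, the latter with a log2 fold change of -1.98 that became -1.39 with the roX covariate. Obp44a, the odorant-binding gene with the largest gain in CPM, went from 889 ± 99.4 to 1341 ± 59.6 CPM and was at 1407 ± 40.9 and 1341 ± 38.6 CPM in Δfne and Δrbp9. With the roX covariate its log2 fold change of 0.58 was 0.47 and no longer past the cutoff.

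Among 56 olfactory, gustatory and ionotropic receptor genes, 3 fell and 2 rose, a share close to the 8.65% of all genes. All 5 were scarce. Ir100a, an ionotropic receptor, read 1.13, 0.77, 1.84, 1.24 and 1.52 CPM in wild type, whereas in ΔfneΔrbp9 it gave 3 counts in replicate 1 and 0 in the others, and was at least 6.38-fold lower against a floor of 3 counts per library. It was rare in Δfne and Δrbp9, at 0.0274 ± 0.0381 and 0.0454 ± 0.0686 CPM. Gr66a, a receptor of bitter taste neurons, rose from 1.27 ± 0.197 to 2.404 ± 0.369 CPM (log2 fold change 0.91 ± 0.17 (SE), edgeR adjusted p = 0.0016). Or63a fell and Ir47b rose, and neither was called with the roX covariate. Or45b, at 1.102 ± 0.224 and 0.469 ± 0.175 CPM, was not called in the fits without wild type replicate 1, 2 or 3 or without ΔfneΔrbp9 replicate 1 or 4. The count was 3 without wild type replicate 1.

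Of 13 takeout and related juvenile hormone-binding-like genes, 3 rose and 2 fell (38.5% called beside 8.65% of all genes). Jhbp5 read 27.3, 22.4, 20.2, 25.3 and 30.8 CPM in wild type against 64.2, 67.8, 70.3, 66.8 and 68.3 CPM in ΔfneΔrbp9 (log2 fold change 1.41 ± 0.10 (SE), edgeR adjusted p = 1.2e-06). The 2 single-gene mutants diverged for it, with 8.69 ± 1.67 CPM in Δfne, under all wild-type libraries, and 52.4 ± 2.88 CPM in Δrbp9, above them. Jhbp15 rose by 0.98 on the log2 scale. Jhbp7 rose as well, while to and Jhbp3 fell, and all 3 calls were lost with the roX covariate, where to (-0.23) and Jhbp3 (-0.23) were close to 0. Cyp4d21, a male-biased P450 of the head fat body, fell from 43.7 ± 13.6 to 7.62 ± 2.68 CPM (log2 fold change -2.53 ± 0.26 (SE), edgeR adjusted p = 2.9e-05), a call that held with the roX covariate. sxe2, a lipase-like gene also biased between the sexes, fell by 0.89 and was not called with the roX covariate (-0.46).

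Of 68 cytochrome P450 genes, which encode oxidases of hormones and foreign compounds, 12 rose and 8 fell, so that 29.4% of the family was called beside 8.65% of all genes. Cyp6d2 rose from 0.447 ± 0.192 to 2.59 ± 0.474 CPM (log2 fold change 2.47 ± 0.27 (SE), edgeR adjusted p = 4.2e-05) and was high in Δfne and Δrbp9, at 4.05 ± 0.864 and 2.25 ± 0.452 CPM. Cyp309a2 read 3.93, 2.02, 0.57, 6.68 and 9.39 CPM in wild-type heads and 25.5, 16.5, 32.7, 21.7 and 24.2 CPM in those of ΔfneΔrbp9, without overlap in spite of wide wild-type values, but with the roX covariate its log2 fold change of 2.41 became 1.10 and its edgeR adjusted p rose to 0.02. Cyp6a17, at 0.349 ± 0.172 CPM in wild type, was at 34.5 ± 1.801 CPM in ΔfneΔrbp9 and high in the other mutants also (59.8 ± 3.85 and 30.6 ± 3.18 CPM). Of 31 glutathione S-transferase genes, 3 rose and 4 fell (22.6% called). GstD3 fell to 48.5% and GstE3 to 53.3% of wild type, and in Δfne these stood at 9.79 ± 1.37 and 38.6 ± 4.11 CPM beside 11.8 ± 1.01 and 35.2 ± 1.64 CPM in ΔfneΔrbp9. Ugt35C1, a UDP-glycosyltransferase, read 72.7, 88.6, 80.7, 72.7 and 61.9 CPM in the wild-type libraries and 20.4, 27.8, 25.5, 27.6 and 23.7 CPM in ΔfneΔrbp9 (log2 fold change -1.60 ± 0.11 (SE), edgeR adjusted p = 1.0e-06), with 22.7 ± 3.28 and 24.98 ± 2.303 CPM in Δfne and Δrbp9. Many P450, GST and UGT genes lie in arrays of similar copies, where the reads of one copy may be counted to another.

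Of 30 sarcomere genes, 1 rose and 1 fell (6.67% called beside 8.65% of all genes). TpnC47D, a troponin C, read 25.03, 14.1, 14.6, 24.3 and 37.1 CPM in wild type against 96.1, 73.9, 87.1, 94.4 and 97.7 CPM in ΔfneΔrbp9 (log2 fold change 1.95 ± 0.23 (SE), edgeR adjusted p = 8.2e-05), and 19.5 ± 6.54 and 76.6 ± 19.004 CPM in Δfne and Δrbp9. Its log2 fold change was 1.22 with the roX covariate. Mhc, the muscle myosin heavy chain, fell from 8544 ± 896 to 5743 ± 359.6 CPM (log2 fold change -0.58 ± 0.08 (SE), edgeR adjusted p = 1.8e-04). The summed muscle markers ran from 12939 to 16590 CPM in wild type and from 11089 to 13293 CPM in ΔfneΔrbp9. Mhc is itself in that sum, which therefore does not show whether muscle as a whole differed. Dhc98D, an axonemal dynein heavy chain, was the only call among 24 genes of motile and sensory cilia, at 20.8, 22.6, 22.1, 23.02 and 22.8 CPM in wild-type heads and 5.33, 7.01, 6.53, 6.45 and 6.11 CPM in those of ΔfneΔrbp9 (log2 fold change -1.84 ± 0.07 (SE), edgeR adjusted p = 1.7e-08). Dhc98D was intermediate in Δfne and Δrbp9, with 9.42 ± 1.26 and 11.2 ± 1.28 CPM. The share of cilia genes called was 4.17%.

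Small RNA pathway genes were called at 5 of 23 (21.7% beside 8.65% of all genes). AGO3, a PIWI-class Argonaute of transposon silencing, read 3.98, 3.99, 2.98, 4.64 and 3.499 CPM in the wild-type libraries and 0.868, 1.12, 1.099, 0.879 and 1.58 CPM in ΔfneΔrbp9 (log2 fold change -1.78 ± 0.19 (SE), edgeR adjusted p = 3.7e-05). No ΔfneΔrbp9 library reached the lowest wild-type value, and Δfne and Δrbp9 had 3.39 ± 0.823 and 2.57 ± 0.411 CPM. qin, a Tudor-domain protein of the same pathway, rose from 3.39 ± 0.427 to 5.91 ± 0.722 CPM (log2 fold change 0.79 ± 0.12 (SE), edgeR adjusted p = 4.4e-04), with 7.89 ± 0.323 CPM in Δfne and 3.26 ± 0.396 CPM in Δrbp9. aub, tj and del gave the remaining calls, which were lost with the roX covariate, aub and tj were not called in 7 and 4 of the 10 fits without 1 library, and the count was 3 without wild type replicate 1 or without ΔfneΔrbp9 replicate 1 or 3. The hairpin RNA gene hpRNA:CR33940, a source of endogenous small interfering RNA, rose from 1.57, 1.49, 1.58, 1.86 and 1.87 CPM to 14.5, 16.4, 14.5, 12.99 and 18.6 CPM (log2 fold change 3.20 ± 0.12 (SE), edgeR adjusted p = 8.9e-09), and was 9.04 ± 1.31 and 15.9 ± 1.37 CPM in Δfne and Δrbp9. Small nucleolar and Cajal body RNAs, which guide the modification of other RNAs, gave 6 higher and 5 lower genes of 111. That share of 9.91% is near the 8.65% of all genes, and there were 7 calls without wild type replicate 2 or ΔfneΔrbp9 replicate 1. The one with the largest log2 fold change was snoRNA:Psi28S-1837a, which went from 14.998 ± 3.001 to 2.71 ± 0.383 CPM (log2 fold change -2.48 ± 0.16 (SE), edgeR adjusted p = 6.1e-07).

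Of 24 heat shock genes, 5 rose (20.8% called beside 8.65% of all genes), but 2 or 3 did in the fits without wild type replicate 1, 2, 4 or 5 or without ΔfneΔrbp9 replicate 1, and 2 with limma-voom. Hsp70Ab, an inducible Hsp70 gene, read 10.1, 12.4, 13.4, 6.25 and 7.81 CPM in wild type against 47.9, 109.7, 23.4, 28.6 and 23.2 CPM in ΔfneΔrbp9 (log2 fold change 2.22 ± 0.45 (SE), edgeR adjusted p = 0.0031). ΔfneΔrbp9 replicate 2 was the highest by far, and the log2 fold change was 1.61 without it and 3.53 with the roX covariate. The Hsp70 copies are nearly identical in sequence, and their separate counts are uncertain. Hsp23, a small heat shock protein, went from 32.96 ± 5.495 to 57.95 ± 13.99 CPM and was not called with the roX covariate (edgeR adjusted p = 0.017).

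Of 32 ecdysone and juvenile hormone genes, 5 were called (15.6% beside 8.65% of all genes). spok, an early enzyme of ecdysteroid synthesis, fell to 34.5% of a low wild-type level of 1.403 ± 0.179 CPM (log2 fold change -1.54 ± 0.19 (SE), edgeR adjusted p = 1.1e-04). jhamt, which methylates juvenile hormone acid, rose from 4.31 ± 1.08 to 9.08 ± 1.48 CPM (log2 fold change 1.06 ± 0.17 (SE), edgeR adjusted p = 7.6e-04), but its edgeR adjusted p was 0.029 with the roX covariate. Of 31 digestive enzyme genes, 5 rose and 1 fell (19.4% called), with a median of 1.02. The lysosomal alpha-mannosidases LManI and LManII were among these, with 26.05 ± 2.96 and 171 ± 29.9 CPM in wild type and 53.4 ± 2.41 and 316 ± 19.7 CPM in ΔfneΔrbp9 (log2 fold change 1.02 ± 0.07 (SE), edgeR adjusted p = 1.8e-06 for LManI, and log2 fold change 0.87 ± 0.10 (SE), edgeR adjusted p = 8.6e-05 for LManII). Gut markers summed to 5.77 to 12.7 CPM in wild type and 13.4 to 284 CPM in ΔfneΔrbp9, where the median of 18.7 CPM lay far below the highest library. The lipase Lip3 and the maltase Mal-A2, which rose from means of 0.558 ± 0.0849 and 0.476 ± 0.108 CPM to 2.497 ± 0.948 and 3.06 ± 2.89 CPM, do not belong to that marker list, and the part of gut tissue in their values was not tested. For Mal-A2, replicate 5 of ΔfneΔrbp9 was the highest library, without which the log2 fold change of 2.66 was 1.87, and its call was lost with the roX covariate (edgeR adjusted p = 0.019).

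Of 8 osiris and mucin-like genes 3 were called (37.5% beside 8.65% of all genes). Osi19 rose from 0.408 ± 0.166 to 2.15 ± 0.777 CPM and Osi9 from 8.83 ± 0.831 to 15.3 ± 2.05 CPM, while Osi2 fell from 60.2 ± 4.48 to 32.4 ± 8.58 CPM and was not called with the roX covariate. Of 16 ABC, SLC22 and multidrug transporter genes, 2 rose and 2 fell (25% called). Mdr50, which encodes a multidrug efflux pump, rose 3.26-fold from 1.34 ± 0.593 CPM (log2 fold change 1.70 ± 0.32 (SE), edgeR adjusted p = 0.0019), and Oatp74D, the importer of ecdysone into cells, rose by 0.54 on the log2 scale, a call that was lost in 3 of the 10 fits without 1 library (wild type replicate 5, ΔfneΔrbp9 replicate 1 and ΔfneΔrbp9 replicate 2). The organic ion transporter genes Oatp26F and Orct2 fell by 1.11 and 0.72, and neither was called with the roX covariate (edgeR adjusted p = 0.013 and 0.013). The metallothionein MtnB, a metal-binding protein, was the 1 called gene of its family, with a 2.01-fold rise (log2 fold change 1.01 ± 0.20 (SE), edgeR adjusted p = 0.0025). Of 33 genes of chitin and cuticle tanning, 2 rose and 1 fell, near the share of all genes, and all of these belong to the yellow family of cuticle and pigment proteins. yellow-e rose by 0.63 on the log2 scale, whereas y (0.80) and yellow-g (-0.89) were not called in 6 and 8 of the 10 fits without 1 library. The chitin and tanning count was 1 without wild type replicate 1 or ΔfneΔrbp9 replicate 1 or 4, and 5 without wild type replicate 5.

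Among the genes with large changes outside these groups, CG5697 rose from 4.72, 4.52, 2.92, 4.33 and 4.78 CPM to 74.5, 39.9, 61.6, 60.8 and 77.2 CPM (log2 fold change 3.86 ± 0.19 (SE), edgeR adjusted p = 1.0e-07), and was 54.5 ± 25.4 CPM in Δfne and 11.9 ± 8.23 CPM in Δrbp9. CG16898 rose from 3.88, 2.98, 3.55, 3.59 and 4.08 CPM to 35.8, 34.3, 39.1, 31.6 and 23.1 CPM (log2 fold change 3.17 ± 0.15 (SE), edgeR adjusted p = 5.2e-08), and was 7.47 ± 1.596 CPM in Δfne and 18.5 ± 2.15 CPM in Δrbp9. Both were named under a rule that required no overlap between the groups. FBgn0028519 rose from 2.09 ± 1.37 to 37.6 ± 4.76 CPM, and CG14118 and CG3397 fell from 27.6 ± 13.4 and 28.5 ± 8.73 to 2.38 ± 0.792 and 2.65 ± 0.304 CPM, with log2 fold changes of 5.07, -2.42 and -2.79 in the fit with the roX covariate. CG43968 fell from 14.99 ± 1.95 to 3.23 ± 0.887 CPM (log2 fold change -2.21 ± 0.16 (SE), edgeR adjusted p = 2.0e-06), with 2.201 ± 0.316 and 4.41 ± 0.548 CPM in Δfne and Δrbp9. By absolute abundance, pkm (X) was the largest loss after Mhc and lncRNA:mimi, from 1640.2, 1622, 1577, 1631 and 1754 CPM in wild type to 955, 869, 916, 927 and 904 CPM in ΔfneΔrbp9 (log2 fold change -0.86 ± 0.04 (SE), edgeR adjusted p = 1.0e-07), and it stood at 1244 ± 27.6 CPM in Δfne and 804 ± 53.6 CPM in Δrbp9.

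The 79 cytoplasmic ribosomal protein genes gave 0 calls with edgeR, DESeq2 or limma-voom, with 42 at an unadjusted edgeR p below 0.05 and a median of 0.14. The 71 nuclear genes of oxidative phosphorylation also gave 0 calls with these 3 tools, with 24 at an unadjusted edgeR p below 0.05 and a median of -0.10. Of these 71, 63 had log2 fold changes below 0 and 8 above. Absence of calls therefore does not mean absence of small shifts shared by most members. Of the 17 genes of the mitochondrial genome, 0 were called with edgeR and limma-voom and 2 with DESeq2, with 4 at an unadjusted edgeR p below 0.05.

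Called genes also lay side by side in some stretches of chromosome. Between Ifrd1 and FASN2 on arm 2L (2868627 to 3056143, dm6), a stretch around Rbp9 whose ends were set at the outermost members of runs of lower genes, 26 of the 30 other genes tested were lower and 2 were higher, and the median log2 fold change was -0.93. Since the ends were drawn from the calls, these counts are a description, and so is the count of 2 lower and 3 higher among 47 further genes tested within 400 kb of Rbp9. FASN2 at the border was not called with the roX covariate (log2 fold change -0.37) or without wild type replicate 2 or 3 or ΔfneΔrbp9 replicate 1, 3, 4 or 5. The lower genes include the chromatin remodeller Chd1, at 158 ± 4.02 CPM in wild-type heads and 84.9 ± 4.48 CPM in those of ΔfneΔrbp9, the splicing factor Sf3b2, at 42.96 ± 2.69 and 20.3 ± 1.13 CPM, and the seryl-tRNA synthetase SerRS, at 44.9 ± 6.16 and 23.2 ± 1.64 CPM. The same genes stood at 92.9 ± 2.896, 21.1 ± 1.898 and 27.8 ± 1.07 CPM in Δrbp9 and at 149 ± 6.45, 41.5 ± 1.92 and 50.03 ± 2.88 CPM in Δfne. The part of the deficiency in these values was not tested. Chd1, Sf3b2 and SerRS were chosen for naming after their values had been seen. The 2 higher genes were CG17224 and CG17264, with log2 fold changes of 0.56 and 2.50. They were named after their values had been seen, and CG3165 and CG17219 were not called. Without this stretch, 456 lower genes and 422 higher genes remained.

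**Figure D4:**
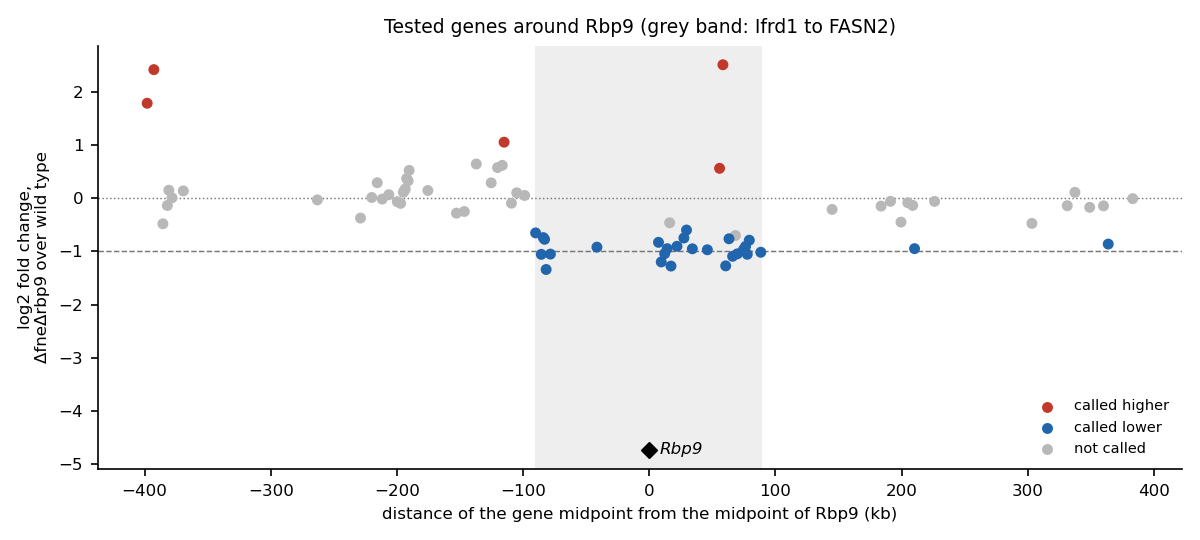
Log2 fold change of ΔfneΔrbp9 over wild type for genes tested within 400 kb of Rbp9, placed by the distance of their midpoint from that of Rbp9 in kb. Red points were called higher, blue points lower and grey points were not called, the black diamond is Rbp9 and the dashed line marks -1; 26 of 30 genes in the grey band from Ifrd1 to FASN2 lie among the lower calls.

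2 further runs of at least 4 neighbouring genes were lower in common. On arm 2L at 9325845 to 9331981, lncRNA:CR45456, lncRNA:CR45457, CG17005 and Cks30A had a median log2 fold change of -3.72. lncRNA:CR45456 read 4.62 ± 1.14 CPM in wild type, 0.324 ± 0.162 CPM in ΔfneΔrbp9, 0.267 ± 0.216 CPM in Δfne and 0.124 ± 0.111 CPM in Δrbp9, and was low in every mutant. Cks30A, a cyclin-dependent kinase subunit at the end of the run, was less affected (log2 fold change -1.19) and was not called with the roX covariate or with a block for the replicate number. On arm 2R at 12402216 to 12409735, the cuticle genes Cpr49Ae, Cpr49Af and Cpr49Ag and their neighbour CG30050 had a median of -0.87. Cpr49Ae, the most abundant of them, read 249, 229.8, 197, 240.1 and 253 CPM in the wild-type libraries and 147, 142, 166, 151 and 159.5 CPM in ΔfneΔrbp9 (log2 fold change -0.62 ± 0.07 (SE), edgeR adjusted p = 5.2e-05).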

How the data were processed

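Total RNA from heads was sequenced paired-end after a stranded library preparation. Per the labels, the authors aligned reads to dm6 with STAR and made whole-number counts per gene with featureCounts (Subread); versions and the strand setting of the counting are not given in the sources used here. The deposited counts of the 10 libraries were fitted with edgeR 4.0.16 (quasi-likelihood test, TMM scaling, genotype as the only term) in R 4.3.3, with limma 3.58.1 and DESeq2 1.42.0 as alternatives. CPM values are counts divided by the library total times its TMM factor over all 20 libraries. The authors' DESeq2 table of base means, fold changes and p-values was not used. Gene names came from the Ensembl release 115 annotation, which held 17252 of 17558 identifiers; the other 306 took 3.76% of counts and kept their identifiers.

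Genes were named, apart from fne and Rbp9, by size of fold change (12 per direction, mean count above 100, no overlap), by CPM change (5 per direction), as called list members (all where 5 or fewer, otherwise the 4 largest by fold) and as ends of runs of at least 4 called neighbours, others are marked as chosen later, and the text describes most but not all of the 164 genes so selected. mimi and neuropeptide genes were kept out. The members and lists were chosen with earlier results of these data known, and 2 lists and 1 alternative were added after these values had been seen. The test was checked on simulated counts. Alternatives changed the scaling, the count filter, the cutoffs, the tool, the libraries and the covariates.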

Additional observations from a re-analysis of the deposited data

Results flagged for a closer look

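In 17 of 328 groups of 5 libraries, the highest or lowest library of a named gene stood apart from the other 4 by Dixon's criterion, and chance gives such a gap in about 1 group of 20. ΔfneΔrbp9 replicate 2 accounted for 6 of these. It was the highest for Hsp70Ab (110 CPM, next 47.9), Hsp70Bb (16.4, next 6.43), Hsp23 (82.1, next 55.7), Pepck2 (10.1, next 7.82) and Ugt50B3 (47.2, next 42.2), and the lowest for ChAT (181 CPM, next 204).

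Among the other ΔfneΔrbp9 libraries, replicate 3 was the highest for GstE1 (71.8 CPM, next 45.4) and Gart (569, next 472), and replicate 5 for Cyp6d2 (3.42, next 2.55) and Mal-A2 (8.21, next 2.14). Replicate 1 held the only reads of Ir100a (0.174 CPM, next 0) and was the lowest for Jhbp3 (145, next 162). In wild type, replicate 1 was the highest for Dgat2 (13.7 CPM, next 7.98) and the lowest for Col4a1 (608, next 840.3), replicate 3 was the lowest for CG5697 (2.92, next 4.33), and replicate 5 was the lowest for Mal-A2 (0.292, next 0.492) and Osi2 (52.3, next 61.2).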

How the results depend on the processing

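Of 164 named genes, 0 reversed direction under any setting that tested them. Of these genes, 106 were called under every alternative that kept the fold change cutoff and tested them. Some genes were left out of some alternatives. With no fold change cutoff 2009 genes were called (900 higher and 1109 lower), and with an absolute log2 fold change above 1, 390 were called (193 higher and 197 lower). Leaving out 1 library at a time gave 800 to 955 calls, with 371 to 448 higher and 407 to 507 lower, and 29 named genes were not called without at least 1 library. DESeq2 called 994 genes (889 shared), limma-voom 905, all 20 libraries 1019, DESeq2 size factors 910, total count scaling 908, no count filter 932, a mean count above 50 688, an adjusted p below 0.05 1136, leaving out genes within 1 Mb of Rbp9 and fne 850, and leaving out the run from Ifrd1 to FASN2, chosen after seeing the data, 878. The roX covariate gave 1125 calls, of which 584 were shared, and 43 named genes were not called, the cause of which was not tested. A block for the replicate number gave 814 calls (388 higher and 426 lower, 787 shared). Deviations of libraries with the same number correlated at 0.0257, 0.395, -0.0574, 0.216 and 0.0234, and only replicate 2 was closest to its own number. Whether libraries of the same number share an origin was not tested. At 3 counts per library, levels under about 0.2 CPM could not be distinguished from 0.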
